A study of Rattus norvegicus with 12 samples.

Results

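Circular RNAs were compared between the kidneys of 3 spontaneously hypertensive rats (SHR) and 3 Dahl salt-resistant rats (R), which asks which features of the SHR kidney hold against a normotensive strain other than its usual Wistar Kyoto (WKY) control. The 6 arrays were chosen by their strain labels from 12, the others being 3 WKY and 3 Dahl salt-sensitive (S) kidneys. All rats of the 4 strains were male, received the same low salt diet with 0.3% NaCl after weaning at 28 to 30 days, and were killed at 57 days of age. No drug or surgery separated the groups, so strain was the only labelled difference, and each strain was represented by 3 rats at a single age. Of 14145 circRNA probes on the array, 12331 were well above background on all 3 arrays of SHR or of R, and 12330 of these were tested after 1 was left out for outlier spots. The circRNAs are given by probe name, since the files used here do not pair the probes with host genes, positions or sequences.

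A circular RNA forms when a downstream splice donor is joined to an upstream splice acceptor, which leaves a molecule without free ends. Such molecules withstand the exonuclease RNase R, which degrades RNA with free ends, and the labelled RNA of these arrays came from total kidney RNA digested in this way and then copied by random priming with the dye Cy3. SHR and WKY descend from a common Wistar stock, whereas the Dahl strains were bred from Sprague-Dawley rats, so SHR and R differ in ancestry as well as in their use as models of hypertension and of resistance to it.

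Levels are given as log2 signal relative to the 75th percentile of the circRNA probes on the same array, so that 0 is that percentile and 1 unit is a doubling of signal. Between 84.7% and 89.5% of circRNA probes were well above background on the SHR arrays and between 87.5% and 91.1% on the R arrays, and the strain means of 86.4% ± 2.67 and 88.7% ± 2.03 (SD, n = 3) gave p = 0.3 in a two-sided exact permutation test. With 3 rats against 3, that test cannot go below 0.1. SHR rat 2 stood apart from its strain: its probe levels had Pearson correlations of 0.904 and 0.914 with SHR rats 1 and 3, but of 0.977, 0.974 and 0.960 with R rats 1, 2 and 3. On the first principal component, which held 62.5% of the variance, SHR rats 1 and 3 scored 66.5 and 58.8, SHR rat 2 scored -8.79, and the R rats scored -0.031, -12.2 and -51.2. An array that sits with another strain raises the question of exchanged samples, and every SHR mean below contains SHR rat 2. On the circRNAs called between SHR and WKY without it, SHR rat 2 lay with its labelled strain in 7 of 8, as given further on. That scale runs from WKY to SHR and R is not on it, so it does not decide on an exchange with R. The labels were kept, and an exchange was not tested. The arrays also fell into 2 scan runs, with the S and R arrays and WKY rats 1 and 2 in the first and the SHR arrays and WKY rat 3 in the second. SHR and R never shared a run, so for them scan run and strain cannot be told apart except through the WKY arrays. The labels do not say more of the rats than their number, and the p-values measure the spread between these kidneys.

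SHR and R kidneys differed in 50 circRNAs at an adjusted p under 0.05, which is 0.406% of those tested (limma, Benjamini-Hochberg adjustment). In whole kidney, fewer cells with a circRNA and less of it per cell cannot be told apart. Of these, 14 were higher in SHR (0.114% of those tested) and 36 were lower (0.292%). The differences that were called were large, with a median size of 2.58 log2 units and a range of 1.21 to 4.73, against a median of 0.40 over all circRNAs tested. In each of the 50 the SHR rats and the R rats formed separate ranges, as they did in 2811 probes, or 22.8% of those tested, with 1568 of them higher in SHR (12.7%) and 1243 lower (10.1%). An unadjusted p under 0.05 was reached by 2270 probes (18.4%). Most calls sat just under the threshold, since 35 of the 50 had an adjusted p between 0.04 and 0.05, and the lowest was 0.0032.

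The brightest circRNAs leaned towards R. The brightest called circRNA had a mean level of 2.23. Of the 870 probes brighter than that, 705 were lower in SHR, with a median difference of -0.73. The cut was set at the brightest call, so none of the 870 could be a call. Among the 3083 probes with a mean level above 0.19, 63.2% were lower in SHR, with a median difference of -0.24, and 11 were called. Over all 12330 probes tested, 51.3% were higher in SHR. The widest difference of all belonged to a probe among the 870, ASCRPR013743. It read -2.80, 8.56 and -2.31 in SHR rats 1 to 3 and 4.37, 8.93 and 9.93 in R rats 1 to 3. SHR rat 2 lay inside the range of R and the other SHR rats lay with WKY, whose mean was -2.23, so a difference of -6.59 (SE 2.54) had an adjusted p of 0.224 (limma).

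**Figure D1:**
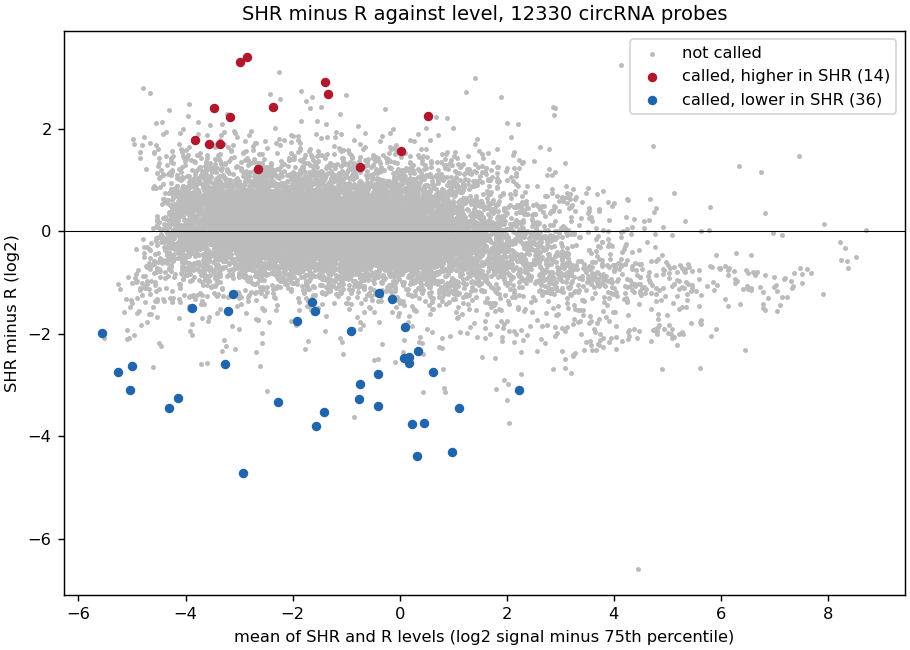
Difference between SHR and R (log2, vertical axis) against the mean level over the 6 arrays (log2 relative to the array's 75th percentile, horizontal axis) for the 12330 circRNA probes tested, with the 14 called higher and the 36 called lower in SHR coloured. The points to the right of the called circRNAs, brighter than any of them, lie mostly below 0.

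In all, 6 circRNAs differed in SHR from both normotensive strains in the same direction, 2 higher and 4 lower. SHR against WKY, tested in the same way, gave 12 calls among 11976 probes (0.1%), of which 4 were higher in SHR (0.0334%) and 8 lower (0.0668%), and all 12 could also be tested against R. The ranges of SHR and WKY were separate in 9.44% of probes. Both comparisons use the same 3 SHR arrays, so their calls are not independent, and the values are given side by side.

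Of these 6, ASCRPR009419 alone was called against R whichever rat was left out. Its levels were -2.17, -2.10 and -1.90 in SHR rats 1 to 3 and -4.31, -3.97 and -4.55 in R rats 1 to 3. The SHR arrays were all above the R arrays, and also above WKY, whose mean was -3.95 ± 0.18 (SD, n = 3), and S, which was well above background on 1 of 3 arrays. It was higher in SHR than in R by 2.22 log2 units (SE 0.26, adjusted p = 0.0057, limma), or 4.65-fold, and higher than in WKY by 1.89 (adjusted p = 0.0128, limma). With normexp background correction and an offset of 50 added to every signal, the difference from R was 0.95 and not called (adjusted p = 0.116, limma). In the authors' deposited values it was 1.05 and called, so the size of the fold depends on the processing. Against WKY rat 3 alone, which shared the scan run with SHR, the 3 SHR rats were higher by 2.03.

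ASCRPR013784 read -0.04, -0.06 and -0.22 in the SHR rats and -1.55, -1.55 and -1.0 in the R rats. SHR alone stood near the 75th percentile, while R, WKY and S had means of -1.36, -1.56 and -1.55. The difference was 1.26 against R (SE 0.23, adjusted p = 0.0463, limma) and 1.45 against WKY (adjusted p = 0.038, limma), and 1.25 against WKY rat 3.

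The 4 circRNAs lower in SHR than in both strains gave no signal well above background in any SHR rat, so only a bound on the fold can be given: the mean of the strain that had the signal over the lowest signal that counted as well above background on the SHR arrays, or the probe's own signal where higher. Here and below, an adjusted p beside a bound tests the log2 difference as read, dim readings included, and not the bound. SHR rat 1 had the same reading, -6.32, in all 4, so these calls rest on SHR readings not well above background. ASCRPR007329 had levels of -2.17, -2.31 and -3.25 in R and a mean of -1.80 ± 0.21 (SD, n = 3) in WKY, which makes SHR at least 3.42-fold lower than R (adjusted p = 0.0148, limma) and at least 5.86-fold lower than WKY (adjusted p = 0.0031, limma). ASCRPR012782 had levels of -3.19, -3.00 and -4.28 in R and a mean of -1.66 ± 0.13 in WKY, and SHR was at least 1.81-fold lower than R (adjusted p = 0.0407, limma) and at least 6.44-fold lower than WKY. Both were brighter in WKY than in R, and SHR rat 2 was as dim as the other SHR rats in both. ASCRPR003318 read -3.77, -3.68 and -4.18 in R, so SHR was at least 1.39-fold lower than R (adjusted p = 0.0066, limma) and at least 2.01-fold lower than WKY. ASCRPR010887 read -3.92, -3.45 and -3.69 in R, with bounds of at least 1.58-fold against R (adjusted p = 0.0463, limma) and at least 2.81-fold against WKY. These last 2 were dim in every strain, with WKY means of -3.34 and -2.86, and their bounds are small for that reason. The bounds are for the background-subtracted signal. Normexp here adds an offset of 50, which by itself draws differences between dim readings towards 0, so its values do not test the bounds. With normexp background correction, the log2 differences from R of ASCRPR007329, ASCRPR012782, ASCRPR010887 and ASCRPR003318 were -0.39, -0.15, -0.13 and 0.044, the last of opposite sign, and in the authors' deposited values they were -1.23, -0.98, -0.98 and -0.60, none of them called.

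**Figure D2:**
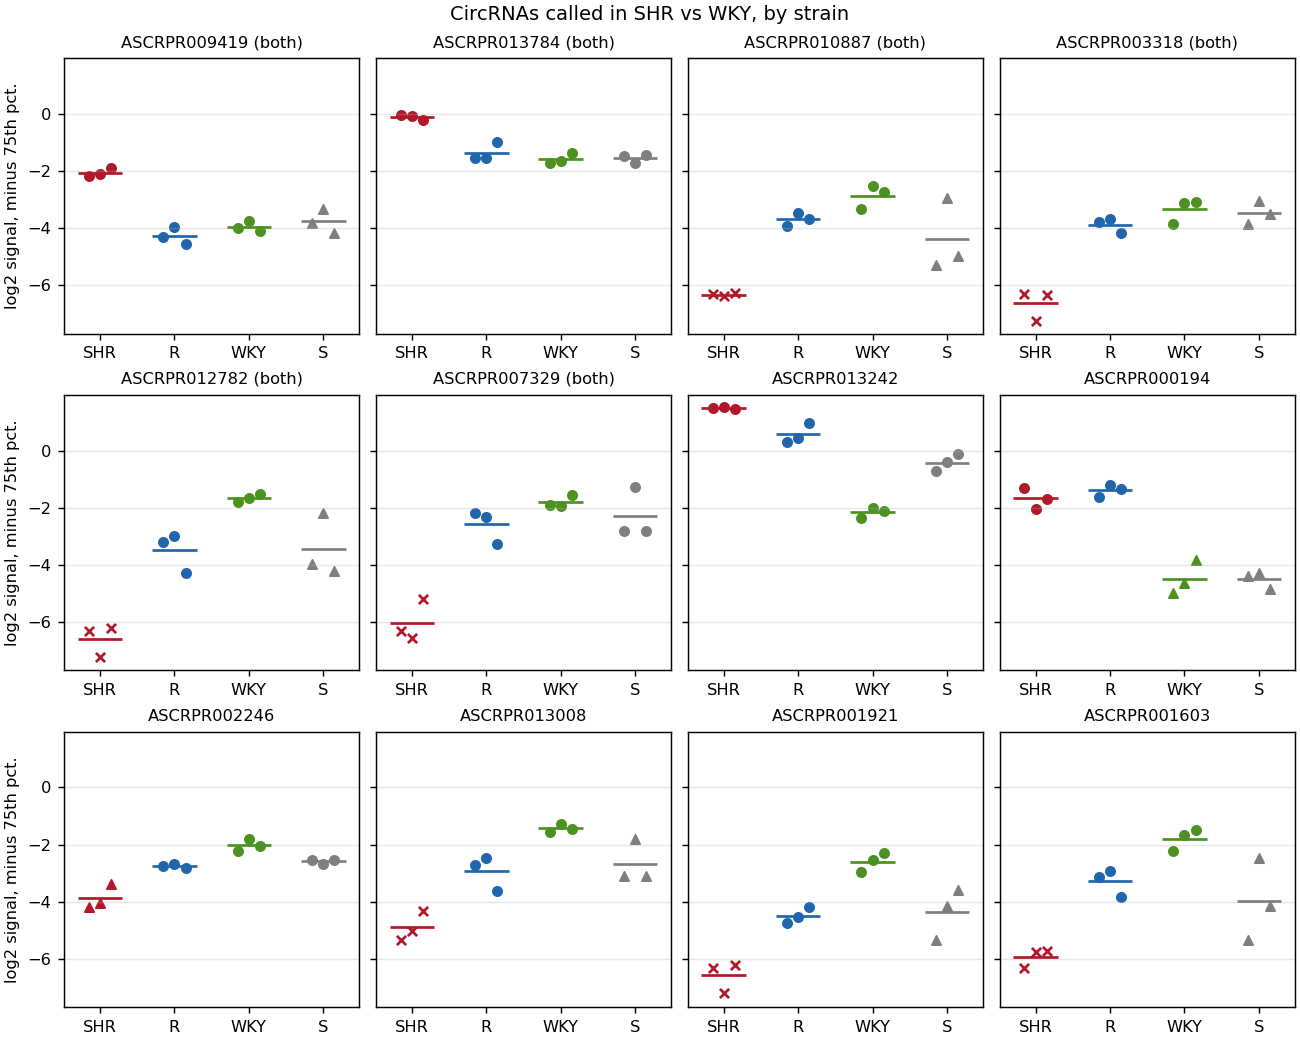
Level (log2 relative to the array's 75th percentile) of each of the 12 circRNAs called between SHR and WKY, by rat, in SHR, R, WKY and S; bars are strain means, circles mark probes well above background on all 3 arrays of a strain, triangles on 1 or 2, and crosses on none. The 6 also called against R show SHR apart from both other strains, whereas in ASCRPR000194 the SHR and R rats lie together.

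The calls of these 6 against R did not all rest on the same rats. ASCRPR009419 was called against R in all 12 fits that left out 1 rat (adjusted p 0.0014 to 0.0467, limma), but its call against WKY was lost without WKY rat 1, WKY rat 3 or any SHR rat (up to 0.114). ASCRPR003318 was lost against R only without R rat 2 (0.0684) and ASCRPR007329 without R rat 1, R rat 2 or SHR rat 1 (up to 0.0995), and both were called against WKY in all 12 fits. ASCRPR012782 was called against WKY in all 12 fits but against R only without S rat 1, S rat 2, R rat 3 or SHR rat 2, with an adjusted p up to 0.157 in the other fits. ASCRPR010887 and ASCRPR013784 were called against R only without S rat 1, S rat 2 or SHR rat 2, and reached 0.236 in the others. Against WKY, ASCRPR010887 was lost without WKY rat 2, WKY rat 3 or any SHR rat (up to 0.114), and ASCRPR013784 was kept in 3 of 12 fits. With the authors' deposited values 1 circRNA was called against both strains, and with normexp 0 were.

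The other 6 circRNAs called between SHR and WKY did not pass the test against R. ASCRPR000194 read -1.29, -2.03 and -1.67 in SHR and -1.63, -1.19 and -1.35 in R, which are overlapping ranges. WKY and S lay at -4.48 and -4.51, each well above background on 1 of 3 arrays, so these means rest mostly on dim readings. The SHR minus R difference was -0.27 (SE 0.32, adjusted p = 0.655, limma), beside a difference of 2.81 from WKY (adjusted p = 0.0032, limma). ASCRPR013242, the circRNA with the smallest adjusted p against WKY (a difference of 3.64, adjusted p = 5.5e-05, limma), read 1.49, 1.52 and 1.45 in SHR and 0.32, 0.46 and 0.96 in R. All SHR arrays were above all R arrays, but the difference of 0.91 (SE 0.24) had an adjusted p of 0.146 (limma), falling to 0.0467 without SHR rat 2. The remaining 4 were lower in SHR than in WKY and had lower means in SHR than in R as well. ASCRPR002246, on 2 of 3 SHR arrays, differed from R by -1.11 (adjusted p = 0.089, limma). ASCRPR013008 and ASCRPR001603 were on no SHR array and were at least 2.67-fold and at least 2.09-fold lower than R, each with an adjusted p of 0.0824 (limma). ASCRPR001921, also on no SHR array, gave no bound against R (adjusted p = 0.0673, limma) and at least 3.37-fold against WKY. Under normexp the differences of ASCRPR013008 and ASCRPR001921 from R were 0.020 and 0.013, of the opposite sign.

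Most of the 50 circRNAs that set SHR apart from R did not set it apart from WKY. Of the 50, 43 were also tested against WKY, and the 37 called against R alone had a median SHR to WKY difference of 0.18 log2 units in size, with 32 under 0.6 and the largest at 1.19. The median over all probes tested against WKY was 0.19. In 11 of the 14 higher circRNAs and 31 of the 36 lower ones the WKY mean was nearer to SHR than to R, as it was in 77.9% of all probes tested. WKY rats 1 and 2 were scanned with R, and they too were nearer SHR in 10 and 11 of the 14 and in 30 and 31 of the 36. For single WKY rats no share over all probes was computed, so these counts are not read as a trait of the 50. The S mean was nearer R in 14 of 14 and 34 of 36. The share over all probes was not computed for S. Over all probes tested, each S rat correlated more strongly with every R rat than with SHR rats 1 and 3. The S counts are therefore not read as a trait of the 50.

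Among the 14 circRNAs higher in SHR, the median difference was 2.23 log2 units. ASCRPR003230 had the smallest adjusted p of the comparison: it read 0.02, 0.15 and 0.01 in the SHR rats and -2.71, -3.46 and -2.36 in the R rats. SHR was tight around the 75th percentile in all 3 rats, WKY was intermediate at -1.06, and S was like R at -2.67. The difference was 2.91 (SE 0.28, adjusted p = 0.0032, limma), or 7.50-fold, beside 1.13 against WKY (adjusted p = 0.577, limma). ASCRPR010484 had the same order of strains, with 0.08, 0.07 and -0.15 in SHR, -2.50, -3.39 and -2.15 in R, -0.93 in WKY and -2.64 in S. It differed from R by 2.68 (SE 0.31, adjusted p = 0.0057, limma) and from WKY by 0.93 (adjusted p = 1, limma). In both, the 3 SHR arrays, SHR rat 2 included, lay within 0.3 log2 units of each other.

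ASCRPR003268 had the largest difference among the higher circRNAs that were measured on all 6 arrays. It read -1.02, -1.46 and -0.99 in SHR and -4.72, -4.44 and -4.51 in R, a difference of 3.40 (SE 0.47, adjusted p = 0.0148, limma) or 10.6-fold. The R readings were near the lowest signal that counts as well above background on those arrays (-5.29, -4.73 and -4.61). The size depends on the background correction and its offset. Under normexp the difference was 1.37 and not called (adjusted p = 0.0769, limma), and in the authors' deposited values it was 1.73 and called. WKY, at -1.21, was level with SHR, and S was well above background on 1 of 3 arrays. ASCRPR009486, the brightest of the 14, read 1.93, 1.54 and 1.49 in SHR and -0.76, -0.72 and -0.29 in R (difference 2.24, SE 0.34, adjusted p = 0.0277, limma). Here too WKY, at 2.06, was on the side of SHR, and S, at 0.02, on the side of R. ASCRPR000691 read -1.54, -0.29 and -1.64 in SHR and -3.74, -3.63 and -3.40 in R (difference 2.43, adjusted p = 0.0463, limma), and ASCRPR006129 read 1.33, 0.33 and 0.74 in SHR and -0.78, -0.88 and -0.66 in R (difference 1.57, adjusted p = 0.0463, limma). In neither did the strains overlap.

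Leaving out 1 rat kept the calls of ASCRPR003230 and ASCRPR010484 in all 12 fits, with adjusted p up to 0.0319 and 0.0413 (limma). ASCRPR003268 was lost without any 1 of the R rats or without SHR rat 1 or 3 (up to 0.0995), and ASCRPR009486 was kept only without S rat 1, S rat 2, WKY rat 1, WKY rat 3 or SHR rat 2 (up to 0.157 otherwise). ASCRPR000691 and ASCRPR006129 were kept only without S rat 1, S rat 2 or SHR rat 2, and reached 0.172 and 0.231.

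Among the 36 circRNAs lower in SHR, the median difference was 2.76 in size, and 23 were well above background on all 6 arrays. ASCRPR008257 separated the Dahl strains from SHR and WKY with little spread. It read -1.34, -0.91 and -1.09 in SHR and 1.61, 1.57 and 1.23 in R, with WKY at -1.25 and S at 1.14. The difference of -2.58 (SE 0.29, adjusted p = 0.0057, limma) made it 5.98-fold lower in SHR than in R, and it differed from WKY by 0.14. It was called in all 12 fits that left out 1 rat (adjusted p up to 0.0488, limma).

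The largest of the 50 differences was that of ASCRPR010162, which read -0.40, -0.36 and -0.91 in R but exceeded background clearly in only 1 of 3 SHR rats, with readings of -6.20, -4.80 and -4.85. The strains were far apart, WKY lay near SHR at -4.34, and S spread from -3.51 to -0.41. The difference was -4.73 (SE 0.64, adjusted p = 0.0148, limma), and the call was lost without R rat 1, R rat 2 or SHR rat 1 (up to 0.0995). Its size and rank rest on dim SHR readings: the difference was -2.67 in the authors' deposited values and -1.53 under normexp, called in both.

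Many of the larger called differences belonged to a group that was bright in R and had a wide spread inside each strain. In 21 of the 36 the R mean was above the 75th percentile, and in 16 of these 21 S was higher than R, R rat 3 was the highest R rat and SHR rat 2 was the highest SHR rat. This group of 16, of which 14 were well above background on all 6 arrays, was picked out after its values were seen. Its differences ran from -2.33 to -4.38, and its median SD was 1.06 in SHR and 1.1 in R, against 0.26 and 0.22 in the other 34 called circRNAs. All 16 were called in at most 4 of the 12 fits that left out 1 rat. That was not particular to this group, since 31 of the 50 were called in 3 or fewer.

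ASCRPR006961 read -3.29, 0.27 and -2.60 in SHR and 1.83, 1.94 and 3.74 in R, a difference of -4.38 (SE 0.78, adjusted p = 0.0463, limma) or 20.8-fold, with WKY at -2.02 and S at 4.40. ASCRPR006672 read -2.19, 1.1 and -2.44 in SHR and 2.22, 2.86 and 4.31 in R, a difference of -4.31 (SE 0.80, adjusted p = 0.0463, limma). ASCRPR006665, the brightest of those called, read 0.02, 2.10 and -0.10 in SHR and 3.02, 3.43 and 4.88 in R (difference -3.10, adjusted p = 0.0463, limma). In each of them SHR rat 2 lay between the other SHR rats and R rats 1 and 2, and R rat 3 was the R rat nearest to S. ASCRPR013102 (-3.46, adjusted p = 0.0407), ASCRPR005701 (-3.76, 0.0463), ASCRPR009893 (-3.75, 0.037) and ASCRPR007824 (-3.41, 0.030) placed SHR rat 2 and R rat 3 in the same way (limma), with differences from WKY between -0.15 and 0.32. The calls of ASCRPR006961, ASCRPR006672, ASCRPR005701 and ASCRPR006665 were kept only without S rat 2 or SHR rat 2 and reached an adjusted p of 0.268 in the other fits. ASCRPR013102 was also kept without S rat 1 (up to 0.22), and ASCRPR009893 and ASCRPR007824 without S rat 1 or R rat 1 (up to 0.185).

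Within SHR, the linear mRNA signal left after digestion was low in the rat in which these circRNAs were high: the median level of the mRNA probes was -0.50 and -0.52 in SHR rats 1 and 3, -1.90 in SHR rat 2 and -1.62, -1.66 and -1.54 in the R rats. With that level as a covariate, all 16 kept their direction and none was called (adjusted p 0.0972 to 0.183, limma), while their median size went from 3.35 to 2.82 and their median SE stayed at 0.56. ASCRPR006961 was at -3.37 and ASCRPR007824 at -2.96 in that fit. The group was picked by the place of SHR rat 2, the SHR rat that the covariate also sets apart, so no contrast with the other 34 is drawn; 10 of those were called, with a median size of 2.20 against 2.10 without the covariate. All 16 were called in the authors' deposited value table. Whether digestion differed between the rats was not tested.

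**Figure D3:**
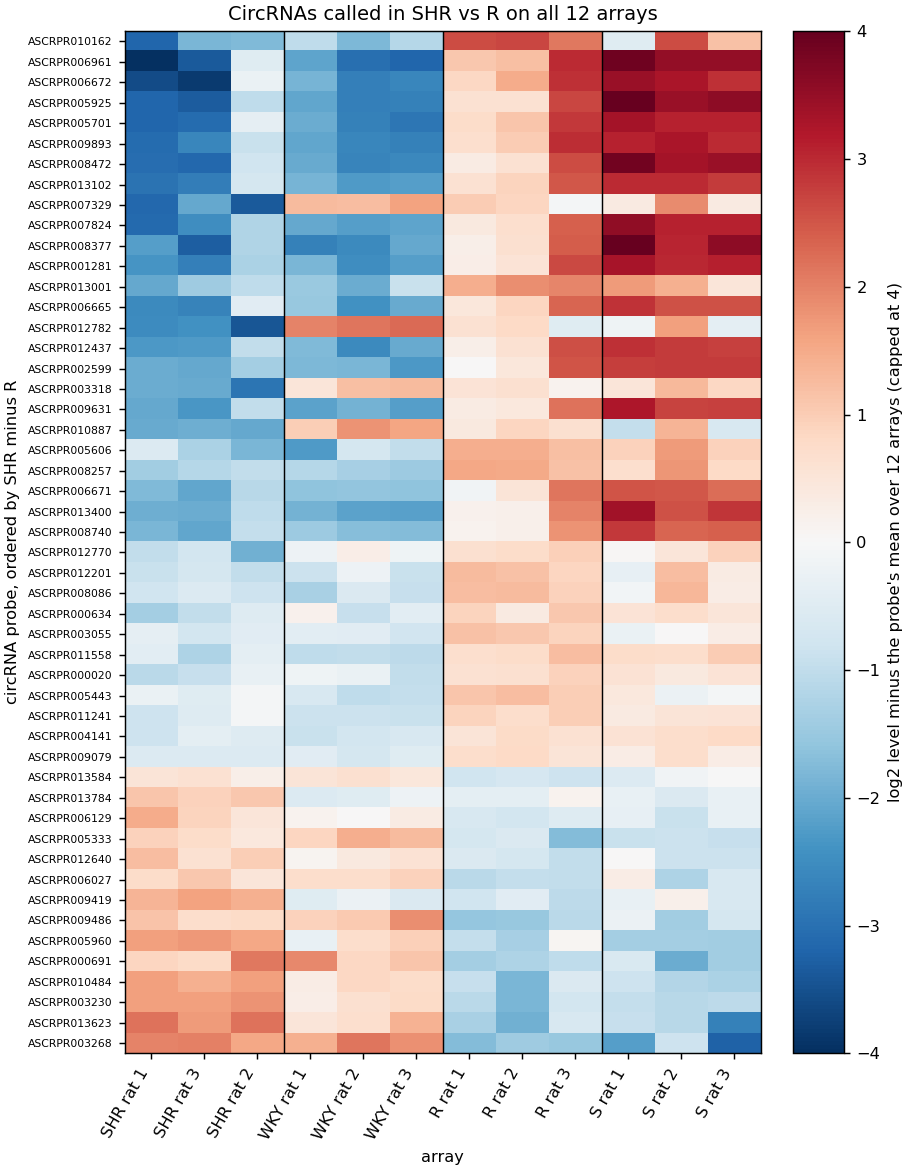
Levels of the 50 circRNAs called between SHR and R in all 12 rats, each centred on its own mean over the 12 arrays (log2, capped at 4 in either direction). SHR rat 2, drawn beside the WKY rats, is paler than SHR rats 1 and 3 in the bright group of circRNAs lower in SHR, while WKY takes the colour of SHR and S that of R in most of the 50.

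Some circRNAs were present in all rats of 1 strain and absent in the other. There were 38 tested circRNAs well above background on all 3 R arrays and on no SHR array, and 8 with the reverse. The lowest signal that counts as well above background differed between arrays, from -4.98 to -4.02 in SHR and from -5.29 to -4.61 in R, so the numbers 38 and 8 are not a comparison of the strains. Of the 38, 6 were called, the 4 given above and ASCRPR013001 and ASCRPR012770. ASCRPR013001 read -2.81, -2.43 and -2.34 in R and was on all 3 S arrays, but on no WKY array, so that its signal was found in the Dahl strains alone. It was at least 3.55-fold lower in SHR than in R (adjusted p = 0.0057, limma), and its call was lost only without R rat 2 (0.0541), although the log2 difference was -0.40 and not called under normexp. ASCRPR012770, also on no WKY array, was too dim in R for a bound, and its difference turned to 0.192 under normexp. Of the other 32, none passed the test, and over the 38 the bound had a median of 1.15 and was above 2-fold in 4. None of the 8 present in SHR alone was called either. Their bounds had a median of 2.15, were above 2-fold in 6 and were largest in ASCRPR012143, at least 3.35-fold (adjusted p = 0.191, limma), which was on all 3 WKY arrays.

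The profile without SHR rat 2 was a different one. With that rat left out, 2093 circRNAs were called between SHR and R, or 17% of those tested, with 961 higher and 1132 lower in SHR and a median size of 1.44. SHR rat 2, which had no part in that fit, was nearer to the R mean than to SHR rats 1 and 3 in 1853 of the 2093 (88.5%). On a scale where 0 is the R mean and 1 is the mean of SHR rats 1 and 3, its median position was 0.097, with quartiles of -0.027 and 0.286, and 78 circRNAs lay above 0.8. The 50 circRNAs called with all rats were all still called. For SHR against WKY, leaving out SHR rat 2 gave 8 calls (0.0668%), and in 7 of them SHR rat 2 lay with its own strain, at positions of 0.82 to 1.31 on the same scale with WKY as 0. The exception was ASCRPR011075 at 0.24, which was not called when SHR rat 2 was included. Among the 7, ASCRPR001921, ASCRPR003318, ASCRPR007329, ASCRPR012782 and ASCRPR013008 were on no SHR array, so their positions rest on signal not well above background. In ASCRPR000194 the R rats lay with SHR as well.

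**Figure D4:**
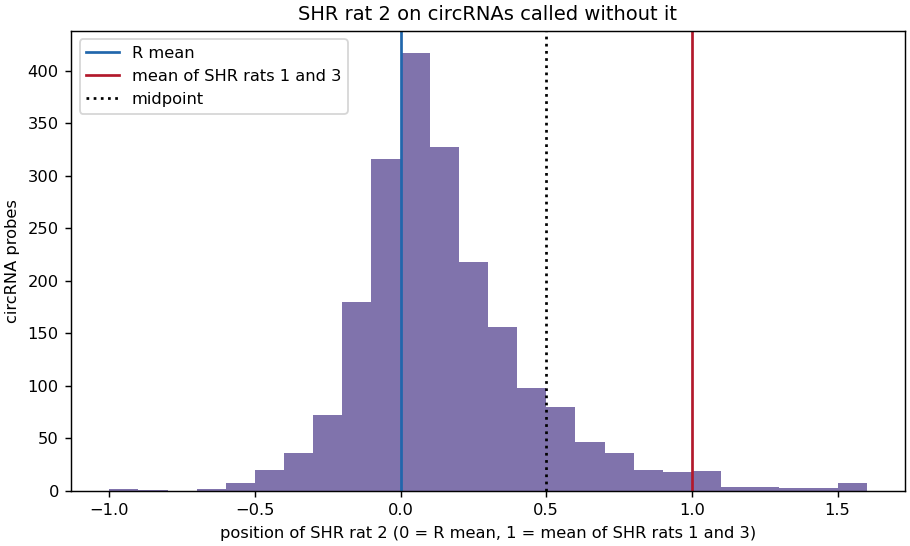
Position of the left-out SHR rat 2 between the R mean (0) and the mean of SHR rats 1 and 3 (1) for the 2093 circRNAs called without it, as a histogram of the number of circRNAs, with values beyond the axis drawn at its ends. The bulk lies near 0, with a median of 0.097.

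The count of calls also moved with the other rats. It was 43 and 82 without S rats 1 and 2, and 11 without S rat 3. Without R rats 1, 2 and 3 it was 11, 4 and 13, and without WKY rats 1, 2 and 3 it was 15, 12 and 13. Without SHR rats 1 and 3 it was 6 and 8. There were 4 circRNAs called in all 12 of these fits, ASCRPR003230, ASCRPR010484 and ASCRPR009419 higher in SHR and ASCRPR008257 lower, whereas 31 of the 50 were called in 3 or fewer. The count called against both R and WKY was 6 with all rats and ranged from 1, without R rat 2 or SHR rat 1, to 14, without S rat 2.

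**Figure D5:**
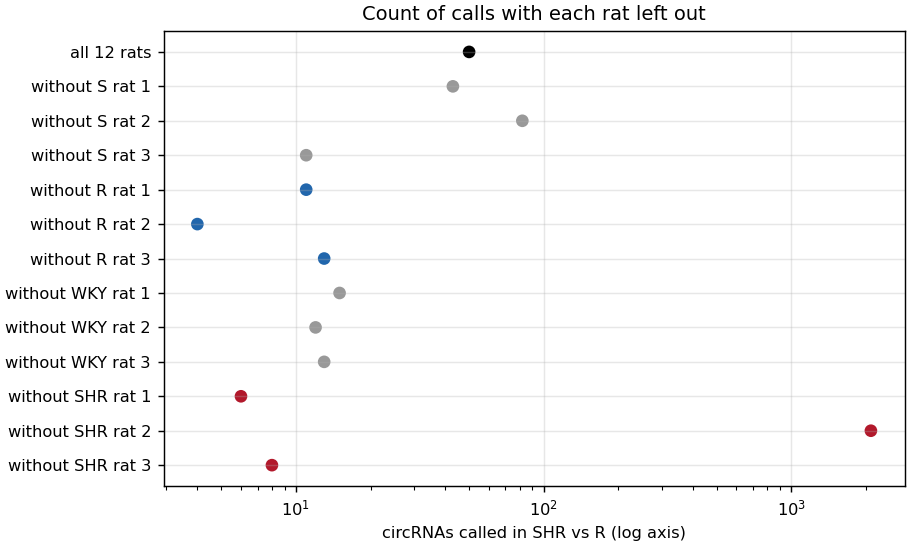
Number of circRNAs called between SHR and R (log axis) when each of the 12 rats was left out in turn, with the count of 50 from all rats as a black point in the top row. The fit without SHR rat 2 stands at 2093 and every other fit lies between 4 and 82.

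The scan run limited the comparison further. With the run as a term in the fit, so that SHR and R were joined through the WKY arrays alone, no circRNA was called and 320 had an unadjusted p under 0.05 (limma). Over the 50, the median size was 2.48 in that fit, close to the 2.58 without the term, but the median SE grew from 0.41 to 0.73. Single circRNAs moved in either direction: ASCRPR009486 went from 2.24 to 1.35 and ASCRPR013001 from -3.25 to -4.07. Within the second run, WKY rat 3 is the only WKY kidney, which leaves too little for a test. Against it all 12 circRNAs called between SHR and WKY kept their direction, at 0.771 to 1.08 of the log2 difference from all WKY rats. WKY rat 3 and the same SHR arrays had a part in those calls, so this is not a separate test of the run.

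The array also carries control probes for linear mRNAs, whose signal is what RNase R left. Of 62 such probes with an accession, 39 matched 38 genes and 49 were bright enough to test, and 0% were called between SHR and R, although 23 (46.9%) had an unadjusted p under 0.05 (limma), 20 higher in SHR and 3 lower. The per-array median level was -0.97 ± 0.80 in SHR and -1.61 ± 0.061 in R (SD, n = 3; p = 0.4, two-sided exact permutation test). Rplp1, which encodes an acidic phosphoprotein of the ribosomal stalk, read 5.77, 0.20 and 5.01 in SHR and 0.20, 0.31 and 0.70 in R (difference 3.26, SE 1.33, adjusted p = 0.0981, limma). Ldha, which interconverts pyruvate and lactate, read 4.50, -0.58 and 3.55 in SHR and -0.22, -0.63 and -0.25 in R on the brighter of its probes (difference 2.86, adjusted p = 0.0981, limma). Its other probe read 1.68, -0.34 and 1.43 in SHR and -0.47, -0.51 and -0.50 in R, a smaller difference of 1.42 (adjusted p = 0.0981, limma). In both genes SHR rats 1 and 3 were high and SHR rat 2 lay with or below R.

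None of the gene lists held a call, each median standing beside 1.02 over all 49 probes. Of 10 listed enzyme genes of energy metabolism (glycolysis, pyruvate and succinate), 3 were tested on 4 probes, with a median difference of 1.86. They were Ldha, Pgk1, a glycolytic kinase (2.30), and Sdha, a subunit of succinate dehydrogenase (1.31). Of 4 ribosomal protein genes 2 were tested, Rplp1 and Rpl13a (1.64, adjusted p = 0.106, limma). Of 8 reference genes 5 were tested with a median of 1.02, with B2m at 1.59, Hprt1 at 1.85, Gusb at 1.02 and Actb at 0.56, and the chaperone Hsp90ab1 at -0.73 (adjusted p = 0.106, limma). Of 24 markers of kidney and other cell types only 2 had a probe, so the tissue label could be checked on little. Cyp2e1, a cytochrome P450 of the proximal tubule, was well above background on all 6 arrays, at 1.80, -1.90 and 1.29 in SHR and -0.72, -0.92 and -1.31 in R (adjusted p = 0.182, limma), and Nlrp3, an inflammasome sensor, differed by -0.18 (adjusted p = 0.711, limma). Without SHR rat 2, 29 of the 49 mRNA probes were called, 25 of them higher in SHR, and SHR rat 2 was nearer R than SHR rats 1 and 3 on 44.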

How the data were processed

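Agilent 1-colour arrays of 12 rat kidneys were used, 3 per strain. Per the file headers and the submitters' processing notes, the authors extracted intensities with Agilent Feature Extraction 11.0.1.1, and limma is named without a role; the processed signal is an intensity with the background already subtracted. The authors' deposited value table of 12846 probes holds log2 values (Spearman rho with the own array at least 0.9954, column medians 6.70 to 6.75), whose centring and filter are not given in the sources used here.

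From the deposited intensities, log2 processed signal minus each array's 75th percentile over the circRNA probes was computed. Spots marked as outliers (40 on 12 arrays) were set missing, at least 2 values per strain were required, and 0 were saturated. Probes well above background on all 3 arrays of either strain compared were kept (11467 on all 6 arrays; 1814 too dim). Using limma 3.58.1 under R 4.3.3 (functions lmFit and eBayes), each probe was modelled by its 4 strain means over the 12 arrays, with 8 residual degrees of freedom from a spread shared by the strains, with Benjamini-Hochberg adjustment over all probes of a comparison at 0.05. Per-array values were tested with scipy 1.17.1. The scripts were tested on simulated data. mRNA probes were fitted apart, as means of 10 spots, and named through RefSeq accessions.

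Named circRNAs were the 6 highest and 6 lowest differences among calls measured on all 6 arrays, up to 4 per direction with the largest bound, all SHR to WKY calls, and per direction the 3 smallest adjusted p and the 3 brightest calls. ASCRPR000020, ASCRPR010162, ASCRPR012770, ASCRPR012143, ASCRPR011075 and ASCRPR013743 were chosen after their values were seen. The members, lists and rules were chosen with earlier results of these data known. Alternatives covered background correction, scaling, filter, the deposited table, replicate number, scan run, strains in the fit, variance model, array weights, mRNA level and each rat. The comparison within the second scan run was added after seeing the data. On arrays, the number of rats limits the precision.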

Additional observations from a re-analysis of the deposited data

How the results depend on the processing

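Against 50 calls between SHR and R, quantile normalization gave 60, median scaling 46, the authors' deposited values 51 (36 of the 50 among them), a filter on any strain 50 and a robust trended variance 45. Other settings moved the count: normexp 15, keeping dim probes 15, requiring all 6 arrays 8, scan run as a block 0 and as a random block 1337, the 2 compared strains alone 24, no moderation 2, array weights 6826 and the mRNA level as a covariate 13. The 12 calls between SHR and WKY became 1 under normexp, 1 with the filter on all arrays, 6 in the deposited table, 1 with the run as a block, 1 without moderation and 107 with array weights. Within the second run, a single WKY kidney left too little for a test. The differences of the 12 there were 0.771 to 1.08 of those from all WKY rats, which include that kidney. The 6 called against both became 0 under normexp, 0 with the filter on all arrays, 3 with no filter, 1 in the deposited table, 0 with the run as a block and 13 as a random block, 0 without moderation and 76 with array weights. The 0 mRNA calls became 25 with the run as a random block and 35 with array weights. Leaving out 1 rat gave 4 to 2093, 7 to 24, 1 to 14 and 0 to 29 for these 4 counts in turn. The cause was not tested, except that the filters change the probes tested and the single-rat fits the rats.

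Rat numbers did not pair the samples: deviations from the strain means of same-numbered SHR and R rats correlated at 0.226, -0.24 and -0.275, and 0 of 3 SHR rats correlated best with their own number. With the replicate number as a block, 8 circRNAs were called against R, 11 against WKY and 2 against both.

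Normexp moved the median of all probes from 0.02 to 0.15 and turned the sign of ASCRPR001921 (0.013), ASCRPR003318 (0.044), ASCRPR013008 (0.020) and ASCRPR012770 (0.192), all on no SHR array, and, among the other calls, of ASCRPR000020 (0.064, on 1 SHR array). The offset of 50 in the normexp setting by itself draws differences between dim readings towards 0. Hsp90ab1 turned to 0.074 under quantile normalization. Nlrp3 differed by -0.44 without SHR rat 2 and turned to 0.279 under normexp, 0.054 with the run as a block, 0.030 without R rat 3 and 0.134 without SHR rat 1. Signal over background limits the dimmest probes: the bounds for those on no SHR array are 3.55-fold or less against R.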
